A study of Mus musculus with 24 samples.

Results

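Lifr, Il6st, Jak1, Stat3, Socs3, Pim1 and Pim3 are genes of LIF and STAT3 signalling, chosen by name with earlier results of these data known. All 7 were found in both deposited tables among 23917 genes. Leukaemia inhibitory factor (LIF) is the cytokine that keeps mouse embryonic stem cells undifferentiated in culture. It binds its receptor, encoded by Lifr, which pairs with the shared receptor chain gp130, encoded by Il6st. Janus kinases bound to these chains, JAK1 among them, then phosphorylate STAT3, which enters the nucleus and switches on target genes. Socs3 is one such target and its product shuts the receptor down again, while the targets Pim1 and Pim3 encode serine/threonine kinases that support self-renewal.

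All cells were E14, an established line of mouse embryonic stem cells. One set had been transfected with oligonucleotides that contain locked nucleic acids and are antisense to tRF-GG, a fragment of glycine tRNA (called inhibitor cells here). A second set had received esiRNA, a pool of short interfering RNAs, against GFP (GFP cells), and a further set was mock-transfected (mock cells). Sequencing of RNA and of ribosome footprints, fragments of 26 to 32 nucleotides kept by ribosomes through RNase digestion, gave 4 libraries in each of 6 groups, 24 in all, named here by group and by the number in their label. The level of tRF-GG itself was not analysed here, so how far it was blocked is not known from these values.

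The deposited values were FPKM, fragments relative to transcript length and to the total of the library, which allow levels of different genes to be compared within a table. The ribosomal RNA precursor Rn45s took 1.68% to 62.67% of the summed FPKM in RNA libraries, and 1.68% to 5.25% once those numbered 1 were set aside. In inhibitor library 1 it took 62.67%, against 18.14% in GFP library 1 and 39.12% in mock library 1. The shares in footprint libraries ran from 18.47% to 44.23%. All levels below are therefore FPKM after a median-of-ratios scaling of the libraries. Each value was divided by a library factor, 0.170 for inhibitor RNA library 1 and 1.25 to 1.44 for RNA libraries not numbered 1. In inhibitor RNA library 1, 6697 genes reached 1 FPKM as deposited, against 11351 to 11884 in RNA libraries not numbered 1. The scaling thus raised low values most in inhibitor RNA library 1. Absolute depth is unknown, and no counting intervals are given. Nothing in the labels says that libraries came from separate cultures, so p-values measure only the spread between these libraries. Pluripotency markers were all detected (14 of 14, with summed scaled RNA FPKM of 2900 to 3981 in inhibitor cells, 3089 to 3937 in GFP cells and 2845 to 4033 in mock cells). Of 13 fibroblast feeder markers, 2 (Lum and Dcn) were listed at 0 in all 24 libraries and 2 had a mean RNA level of at least 1 scaled FPKM, Fn1 with 108 and Thy1 with 5.38.

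Differences between groups were computed on log2(scaled FPKM + 1) with limma, a linear model fitted over the whole table, with Benjamini-Hochberg adjustment over all genes tested. In 8 comparisons, none of the 7 signalling genes passed an adjusted p of 0.05. The RNA of Lifr was lower in inhibitor cells than in either control, and so were footprints on Socs3 against GFP cells, at an unadjusted p only. The 95% intervals of all other differences between inhibitor and control cells held 0. The comparisons with GFP cells and with mock cells share their inhibitor libraries, so that they are not independent of each other.

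The share of all genes past the adjusted threshold sets the background for these counts. In RNA, 0 of 7 signalling genes passed against GFP cells, where 0.0159% of 12560 genes did, and 0 of 7 against mock cells, where 0.0239% did. At an unadjusted p under 0.05 limma gave 1 of 7 in each comparison, Lifr both times, against backgrounds of 3.11% and 3.66%. In footprints 0 of 7 passed against GFP cells (0.00937% of 10669 genes) and 0 of 7 against mock cells (0.0%). At an unadjusted p under 0.05, footprints gave 1 of 7 against GFP cells, Socs3, beside a background of 3.31%, and 0 of 7 against mock cells, beside 3.59%. Between the controls, GFP against mock, 0 of 7 passed in RNA (0.0%) and 0 of 7 in footprints (0.00937%), and at an unadjusted p under 0.05 there were 0 of 7 in both, beside 0.525% and 0.459%.

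**Figure D1:**
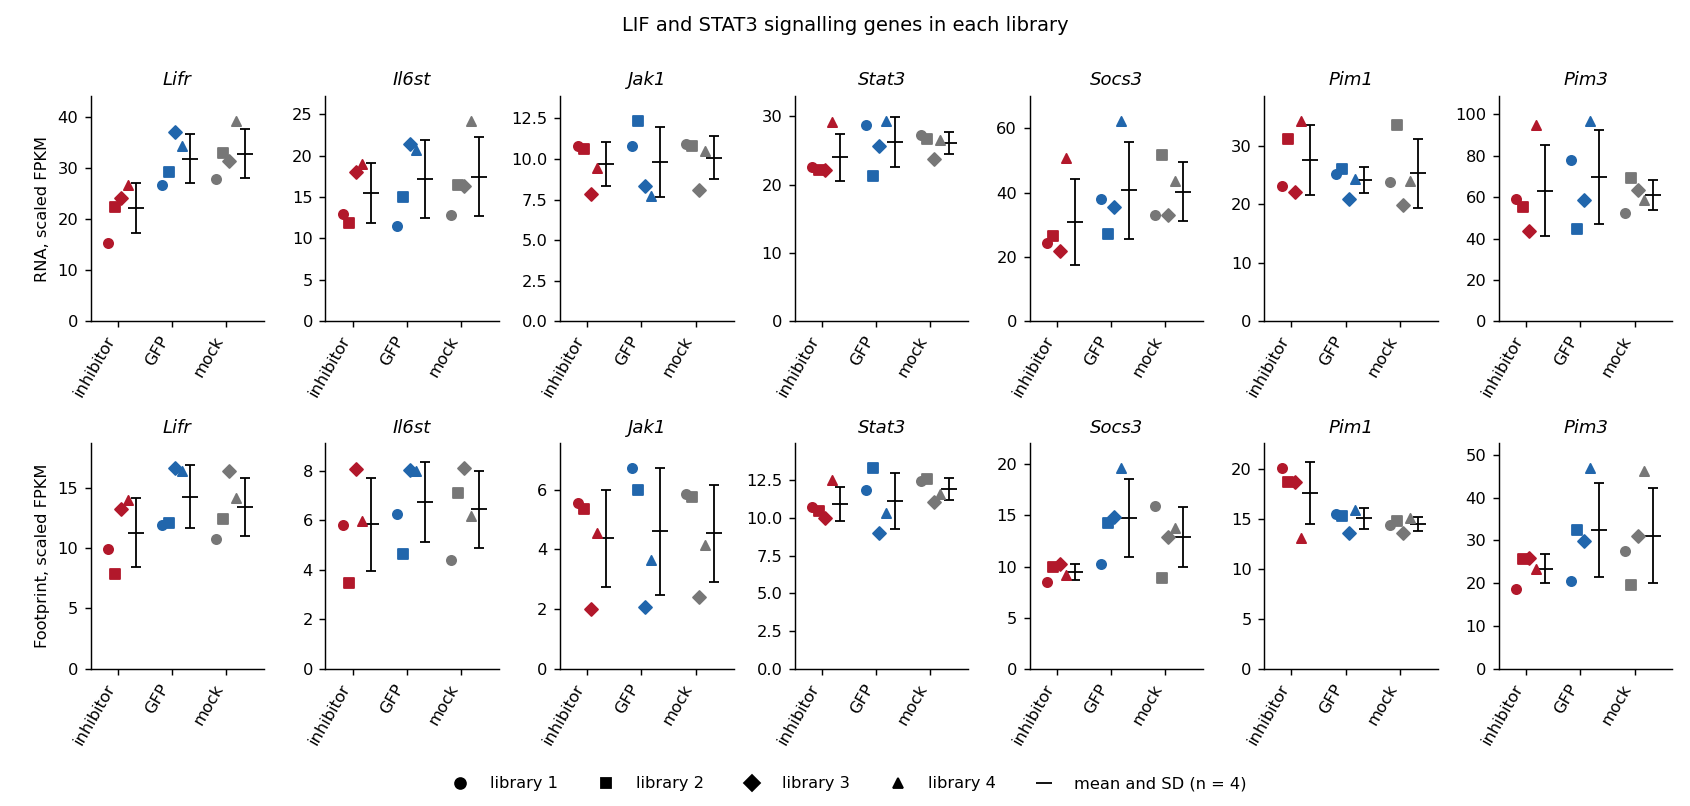
Scaled FPKM (vertical axes, from 0) of the 7 signalling genes in RNA (upper row) and ribosome footprints (lower row), in inhibitor, GFP and mock cells. Each symbol is 1 library, its shape gives the library number, and black marks show mean and SD of 4 libraries. Lifr RNA averaged 22.1 in inhibitor cells, 31.8 in GFP cells and 32.8 in mock cells, while Jak1, Stat3 and Il6st overlap among all 3 groups.

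Lifr lies at chr15:7090610-7197489 (GRCm38.p6, or mm10) and was listed with 2 RefSeq transcripts. Its RNA was at 15.4, 22.3, 24.1 and 26.6 scaled FPKM in inhibitor libraries 1 to 4, against 26.6, 29.2, 37.1 and 34.2 in GFP libraries 1 to 4 and 27.8, 32.8, 31.3 and 39.1 in mock libraries 1 to 4. The highest inhibitor library just reached the lowest GFP library, and every inhibitor library lay below every mock library. The difference was -0.52 against GFP cells (log2, SE 0.20, 95% interval -0.94 to -0.10), with an unadjusted p of 0.0189 by limma and an adjusted p of 1. Against mock cells it was -0.56 (SE 0.20, 95% interval -0.98 to -0.14), with an unadjusted p of 0.0121 by limma and an adjusted p of 1. Lifr was the 1 signalling gene of 7 whose inhibitor and mock RNA libraries did not overlap, where 1.22% of all genes lay lower in that way. Against GFP RNA libraries 0 of 7 were separate, where 1.2% of all genes lay lower.

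The lowest Lifr value came from inhibitor library 1, the library with most Rn45s. Without it the differences were -0.37 against GFP cells and -0.41 against mock cells. Without any library numbered 1 they were -0.43 and -0.46. The part that Rn45s content plays in these values was not tested. RNA libraries of the same number deviated together across genes, so a fit with the library number as a block was also made. Lifr RNA was lower in the inhibitor library of all 4 numbered pairs against both controls, with log2 differences of -0.75 to -0.35 against GFP cells and -0.81 to -0.37 against mock cells. In RNA, 2 of 7 signalling genes (Lifr and Socs3) were lower in all 4 pairs against GFP cells, beside 9.32% of all genes, and 2 of 7 (Lifr and Jak1) against mock cells, beside 7.65%. The blocked limma fit called 0 of 7 signalling genes in either comparison, beside 0.255% and 0.271% of all genes, and gave Lifr adjusted p-values of 0.251 and 0.156, the lowest of all alternatives, which reached up to 1.

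Footprints on Lifr were at 9.94, 7.89, 13.2 and 14.0 scaled FPKM in inhibitor libraries 1 to 4, against 11.9, 12.1, 16.6 and 16.4 in GFP libraries and 10.7, 12.4, 16.4 and 14.1 in mock libraries. Each inhibitor library lay below the GFP library of its number, and the groups overlapped. The differences were -0.33 against GFP cells (log2, SE 0.20, 95% interval -0.76 to 0.10) and -0.25 against mock cells (SE 0.20, 95% interval -0.68 to 0.18). Both intervals held 0. Without inhibitor library 2, the lowest, they were -0.18 and -0.10.

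Il6st, at chr13:112464070-112506860, encodes gp130, the chain shared by receptors of the interleukin 6 family. Its RNA was at 12.9, 11.9, 18.0 and 19.0 scaled FPKM in inhibitor libraries 1 to 4, against 11.5, 15.0, 21.3 and 20.7 in GFP libraries and 12.8, 16.5, 16.3 and 24.2 in mock libraries. Within each group libraries 3 and 4 were higher than library 1, and the groups overlapped. The RNA differences were -0.13 against GFP cells and -0.16 against mock cells (SE 0.24 for both), and the footprint differences were -0.20 and -0.14 (SE 0.24 for both). Without inhibitor library 2, the lowest in footprints, these footprint differences were -0.0066 and 0.048. The 95% intervals for Il6st reached from -0.65 to 0.39 in RNA and from -0.71 to 0.32 in footprints against GFP cells. Differences within these limits, in either direction, were not excluded.

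Jak1, at chr4:101151974-101265282, encodes the kinase that gp130 needs for signalling. It was the lowest of the signalling genes in every group, with means of 9.68 ± 1.36 scaled FPKM in inhibitor RNA, 9.80 ± 2.14 in GFP RNA and 10.1 ± 1.34 in mock RNA (SD, 4 libraries each). Its RNA differences were -0.0039 against GFP cells and -0.053 against mock cells (SE 0.19 for both). Footprints on Jak1 were at 5.54, 5.36, 2.02 and 4.55 scaled FPKM in inhibitor libraries 1 to 4, against 6.71, 5.99, 2.08 and 3.63 in GFP libraries and 5.84, 5.75, 2.40 and 4.15 in mock libraries. Library 3 was the lowest in all 3 groups, by more than any difference between inhibitor and control libraries of the same number. The footprint differences were -0.036 and -0.053 (SE 0.33 for both), and the spread over library numbers made this SE the largest among the signalling genes in footprints.

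Stat3, at chr11:100886806-100939594, encodes the transcription factor at the centre of the pathway and was listed with 2 RefSeq transcripts. Its RNA was at 22.6, 22.2, 22.1 and 29.1 scaled FPKM in inhibitor libraries 1 to 4, against 28.7, 21.3, 25.6 and 29.3 in GFP libraries and 27.3, 26.7, 23.7 and 26.6 in mock libraries. Inhibitor library 4 stood above the other inhibitor libraries and inside the GFP range. The RNA difference was -0.12 against each control (SE 0.16 for both). Footprints averaged 10.9 ± 1.12 in inhibitor cells, 11.1 ± 1.87 in GFP cells and 11.9 ± 0.743 in mock cells (SD, 4 libraries each), with differences of -0.014 and -0.12 (SE 0.14 for both). Over all 12 libraries Stat3 varied least of the 7 genes, with the highest library at 1.38 times the lowest in RNA and 1.48 times in footprints.

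Socs3 lies at chr11:117966079-117970336 and encodes the inhibitor that STAT3 itself induces. A stretch before a Socs3 start in the RefSeq window table is shown because STAT proteins bind inverted repeats of TTC and GAA. That start lies inside the extent of the gene given above, on the minus strand, and the table does not name its transcript, so the stretch is not upstream of the whole gene. TTCNNNGAA, which reads the same on both strands, was searched for in RefSeq windows around the gene starts, and 1 of the 9 windows that cover the 7 genes held it, the Socs3 window. Among all 32851 windows 8.30% held it, and 7.02% held it in the upstream part. In the Socs3 sequence, read from RefSeq at chr11:117969367-117969616 on the minus strand (GRCm38.p6) and printed from far to near with the match in capitals, it lay 154 to 146 bases before that start. No other motif was searched for, the match is a description of letters, and binding was not measured.
Socs3: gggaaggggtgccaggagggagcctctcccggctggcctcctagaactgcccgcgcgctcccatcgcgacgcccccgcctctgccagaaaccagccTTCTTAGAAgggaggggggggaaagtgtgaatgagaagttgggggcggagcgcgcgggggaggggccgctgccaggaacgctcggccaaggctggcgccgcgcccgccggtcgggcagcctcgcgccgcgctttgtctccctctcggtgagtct

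Footprints on Socs3 were at 8.45, 9.96, 10.2 and 9.15 scaled FPKM in inhibitor libraries 1 to 4, against 10.3, 14.3, 14.9 and 19.6 in GFP libraries and 16.0, 8.87, 12.9 and 13.8 in mock libraries. All inhibitor libraries lay below all GFP libraries, by a narrow margin at the nearest, while mock library 2 fell inside the inhibitor range. The difference was -0.56 against GFP cells (log2, SE 0.20, 95% interval -0.9998 to -0.13), with an unadjusted p of 0.0152 by limma and an adjusted p of 1. Against mock cells it was -0.39 (SE 0.20, 95% interval -0.82 to 0.050), with an unadjusted p of 0.0781 by limma. Socs3 was the 1 signalling gene of 7 whose inhibitor and GFP footprint libraries did not overlap, where 0.872% of all genes lay lower in that way, and 0 of 7 were separate from mock, where 1.07% lay lower.

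Footprint libraries of inhibitor and GFP cells also deviated together by number. In those pairs Socs3, Lifr and Pim3 footprints were lower in the inhibitor library of all 4, 3 of 7 signalling genes, beside 9.01% of all genes. The blocked limma fit over all 3 groups called 0 of 7, beside 0.075% of all genes, with an adjusted p of 0.486 for Socs3. That fit also blocks the mock libraries, whose footprint numbers 1 and 2 did not match those of inhibitor and GFP cells in the pairing check. Which group's numbers are out of step is not known. The blocked fit of inhibitor and GFP libraries alone gave Socs3 an adjusted p of 0.193, the lowest among the alternatives, which reached up to 1. Leaving out GFP library 4, the highest of its group, left the Socs3 footprint difference at -0.42.

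Socs3 RNA was at 24.5, 26.5, 21.8 and 50.7 scaled FPKM in inhibitor libraries 1 to 4, against 38.0, 27.3, 35.5 and 62.2 in GFP libraries and 32.9, 51.7, 33.0 and 43.6 in mock libraries. Library 4 was highest in inhibitor and in GFP cells, library 2 in mock cells, and the groups overlapped. The RNA differences were -0.41 against GFP cells (SE 0.29, 95% interval -1.02 to 0.21) and -0.43 against mock cells (SE 0.29, 95% interval -1.05 to 0.19). Without inhibitor library 4 they were -0.67 and -0.69, and against GFP cells the value was -0.27 without inhibitor library 3 and -0.19 without GFP library 4. The coefficient of variation of Socs3 RNA was the highest of the 7 genes in inhibitor cells (43.4%) and in GFP cells (36.9%), while in mock cells, at 22.6%, it was below that of Il6st (27.4%).

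Pim1, at chr17:29490785-29496111, was the 1 gene whose fitted values were above 0 in RNA and footprints against both controls. Its footprints were at 20.1, 18.7, 18.8 and 13.1 scaled FPKM in inhibitor libraries 1 to 4, against 15.6, 15.3, 13.6 and 15.9 in GFP libraries and 14.4, 14.8, 13.6 and 15.1 in mock libraries. Inhibitor libraries 1 to 3 were above all control libraries and inhibitor library 4 was below them all. The footprint differences were 0.20 against GFP cells (SE 0.15, 95% interval -0.12 to 0.51) and 0.25 against mock cells (SE 0.15, 95% interval -0.065 to 0.57), and without inhibitor library 4 they were 0.33 and 0.38. In RNA they were 0.17 and 0.12 (SE 0.20 for both), and with FPKM as deposited, where the median of all genes also shifted by -0.39 and -0.19, they were -0.33 and -0.13.

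Pim3, at chr15:88862194-88865726, had the highest level of the signalling genes in every group. Its RNA was at 58.9, 55.3, 43.9 and 94.7 scaled FPKM in inhibitor libraries 1 to 4, against 77.8, 44.8, 58.7 and 96.8 in GFP libraries and 52.2, 69.2, 63.4 and 58.6 in mock libraries. Footprints on it were at 18.7, 25.6, 26.0 and 23.3 in inhibitor libraries 1 to 4, against 20.4, 32.4, 30.0 and 46.8 in GFP libraries and 27.6, 19.6, 31.1 and 46.3 in mock libraries. Library 4 held the highest footprint value in both controls and not in inhibitor cells, and the groups overlapped in both assays. The RNA differences were -0.14 against GFP cells and 0.0038 against mock cells (SE 0.26 for both), and the footprint differences were -0.41 and -0.34 (SE 0.27 for both). The 95% intervals of the footprint differences, -0.98 to 0.17 and -0.92 to 0.23, held 0. Without GFP library 4 the first was -0.21, and without mock library 4 the second was -0.14, or -0.54 without mock library 2.

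**Figure D2:**
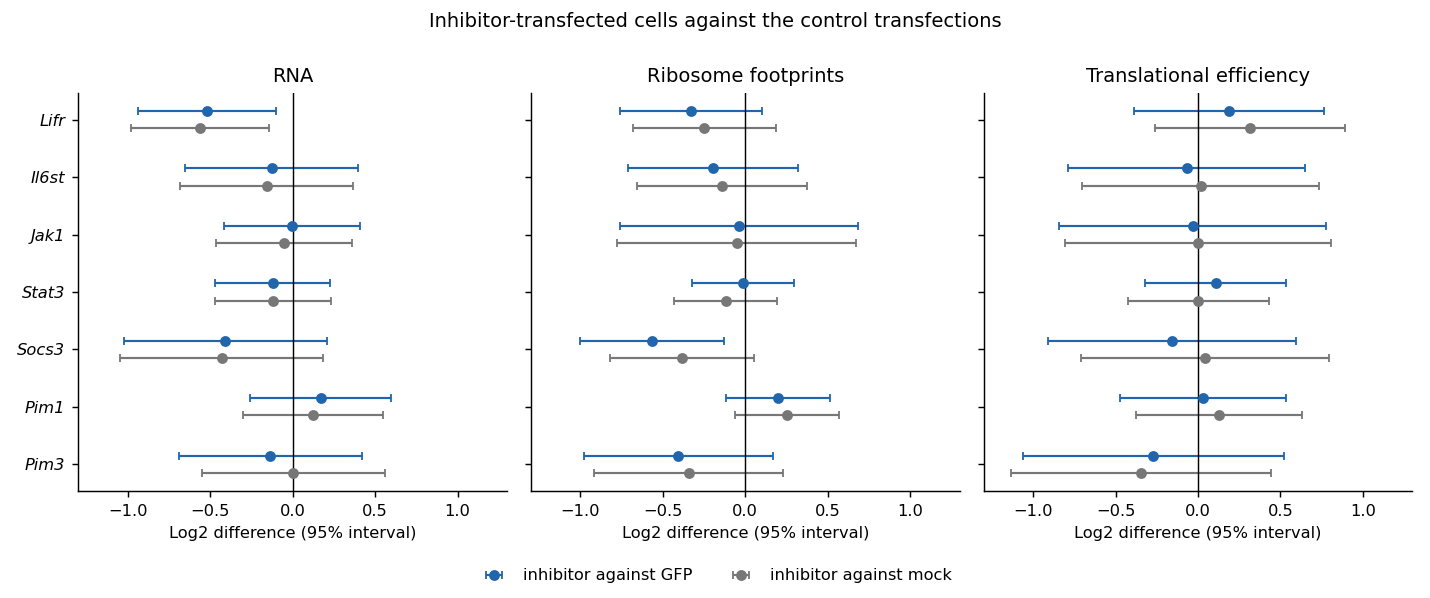
Log2 differences of inhibitor cells against GFP cells (blue, upper of each pair) and against mock cells (grey, lower) for the 7 signalling genes in RNA, ribosome footprints and translational efficiency, with 95% intervals from limma. The intervals of Lifr in RNA (both controls) and of Socs3 in footprints (GFP cells) lie below 0, and all others hold 0.

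In RNA 6 of 7 were below 0 against GFP cells, with a median of -0.13, beside a median of -0.011 over all genes, of which 52.2% were below 0. Against mock cells 5 of 7 were below 0, with a median of -0.12, beside -0.0090 over all genes, of which 51.6% were below 0. In footprints 6 of 7 were below 0 against GFP cells, with a median of -0.20, beside 0.013 over all genes, of which 47.0% were below 0. Against mock cells 6 of 7 were below 0 as well, with a median of -0.14, beside 0.0030 and 49.2%. Between GFP and mock cells 5 of 7 were below 0 in RNA, as many as for inhibitor against mock, with a median of -0.029, and 2 of 7 in footprints, with a median of 0.056. In bulk samples, fewer cells that express a gene and less of its RNA per cell cannot be told apart.

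**Figure D3:**
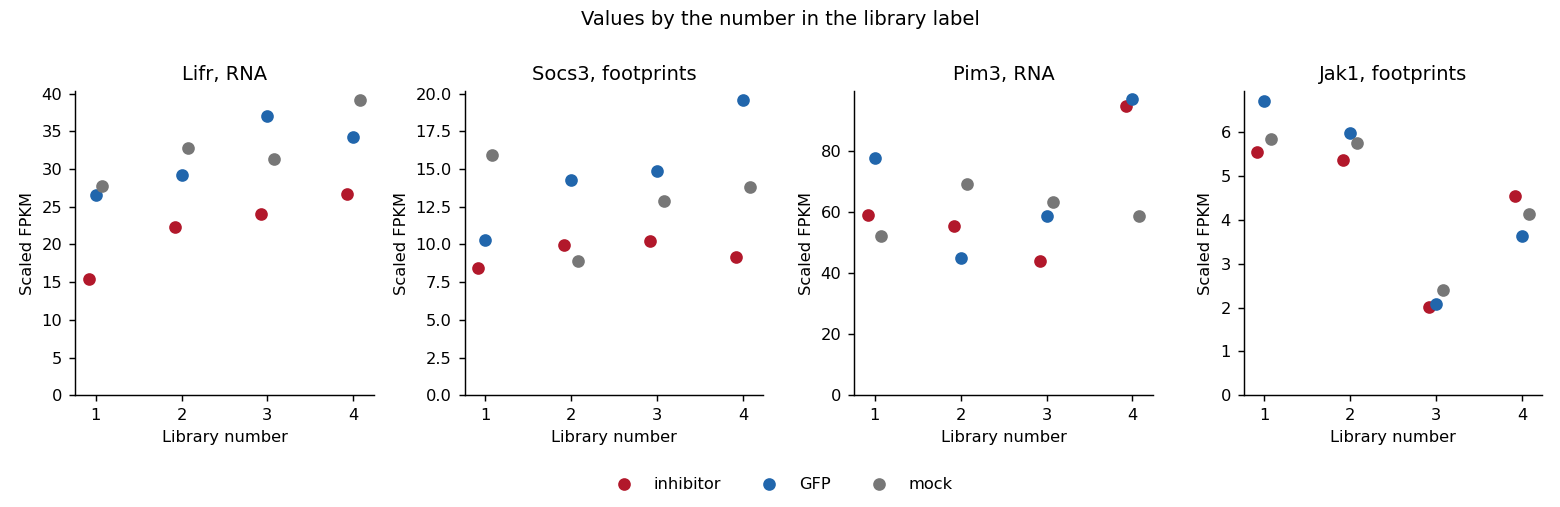
Scaled FPKM (vertical axes, from 0) against the library number for Lifr RNA, Socs3 footprints, Pim3 RNA and Jak1 footprints, with 1 point per library of inhibitor (red), GFP (blue) and mock (grey) cells. Lifr RNA of inhibitor cells was the lowest at each number, Jak1 footprints were lowest in library 3 of all 3 groups, and Pim3 RNA was highest in library 4 of inhibitor and GFP cells.

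The order of RNA levels began with Pim3 and Socs3 and ended with Il6st and Jak1 in all 3 groups. In inhibitor cells only the neighbours Il6st and Jak1 had ranges that did not overlap, in GFP cells no neighbours did, and in mock cells Pim3 stood apart from Socs3, Lifr from Stat3 and Il6st from Jak1. Lifr, at 22.1 ± 4.82 scaled FPKM, had rank 5 in inhibitor cells, and it had rank 3 in GFP cells at 31.8 ± 4.75 and in mock cells at 32.8 ± 4.75 (SD, 4 libraries each). In footprints Pim3 and Pim1 led every group, with ranges apart in GFP and mock cells and overlapping in inhibitor cells, and Il6st and Jak1 came last. The step down to Il6st, from Socs3 in inhibitor cells and from Stat3 in GFP and mock cells, was between ranges that did not overlap.

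Translational efficiency relates the footprints on a gene to its RNA, and was compared between groups as the interaction term of 1 limma model over all 24 libraries. Against GFP cells 0 of 7 signalling genes passed the adjusted threshold (0.0% of 10497 genes) and 0 of 7 an unadjusted p under 0.05 (0.714%). Against mock cells 0 of 7 passed (0.0%), and again 0 of 7 at an unadjusted p under 0.05 (0.915%). For Lifr the differences in log2 efficiency were 0.19 against GFP cells and 0.31 against mock cells (SE 0.28 for both), for Socs3 -0.16 and 0.044 (SE 0.36 for both) and for Pim3 -0.27 and -0.35 (SE 0.38 for both). The 95% intervals of the 7 genes reached down to -1.14 (Pim3 against mock cells) and up to 0.89 (Lifr against mock cells). With FPKM as deposited the median of all genes shifted by 0.40 against GFP cells, and Socs3 stood at 0.28 and Pim3 at 0.19.

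Within each group, the log2 ratio of mean footprint to mean RNA level is given relative to the median of all genes in that group, since the tables were scaled separately. Pim1 had the highest ratio of the 7 in all 3 groups, 0.39 ± 0.21 above the median in inhibitor cells, 0.41 ± 0.087 in GFP cells and 0.23 ± 0.16 in mock cells (SE). Socs3 had the lowest, at -0.68 ± 0.28 in inhibitor cells, -0.38 ± 0.31 in GFP cells and -0.62 ± 0.24 in mock cells (SE). These values put Pim1 at the 67.2nd, 68.6th and 60.7th percentile of all genes in inhibitor, GFP and mock cells, and Socs3 at the 23.2nd, 33.4th and 25.3rd.

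**Figure D4:**
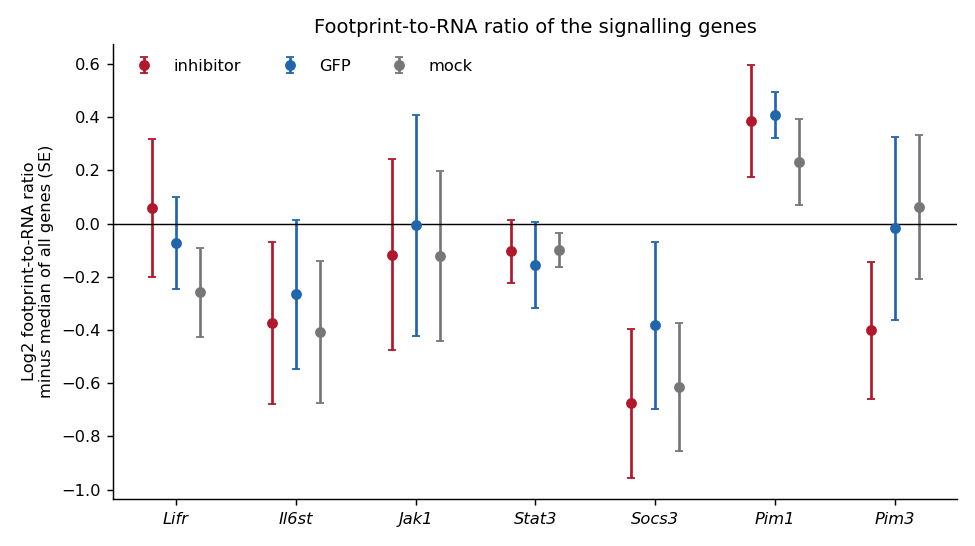
Log2 ratio of footprint to RNA level, less the median of all genes (vertical axis), for the 7 signalling genes in inhibitor, GFP and mock cells, with SE over 4 footprint and 4 RNA libraries. Pim1 lies above the median gene in all 3 groups. Socs3, Il6st, Stat3 and Jak1 lie below it in all 3, Jak1 only just in GFP cells, at -0.00715. Pim3 lies at -0.40 in inhibitor cells, against -0.018 in GFP cells and 0.063 in mock cells.

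Profiles over the 24 libraries were compared by root mean square distance, after each gene was centred and scaled within an assay. Among the 7 genes the closest pair was Socs3 and Pim3, at 0.55, and the next was the receptor pair Lifr and Il6st, at 0.66. Among 4488 genes that averaged 5 FPKM or more in both tables, the nearest to Socs3 were 2410018L13Rik, Ddah2 and Pim3, where the median distance was 1.34. The genes nearest to Lifr were Spp1 (0.54), Phgdh and Nde1, and those nearest to Il6st were Scd2 (0.47), Ergic1 and Agtrap. For Jak1 they were Rbpj (0.39), Copa and Atp6v1b2, and for Stat3 Nup188 (0.59), Ubr4 and Mcm2. For Pim1 they were Lzic (0.61), Tle3 and Fbxo2, and for Pim3 Zfp219 (0.53), Ddx54 and Tcof1. Libraries of a number deviate together in RNA and between inhibitor and GFP footprints, and such shared deviations enter these distances.

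Other genes of the pathway were taken from 4 lists, and limma called none of their members in any of the 8 comparisons, in the fit without a block or in the blocked fit over all 3 groups. At an unadjusted p under 0.05 in RNA against GFP cells it gave 1 of 6 other ligands and receptors, 1 of 14 kinases, STATs and adaptors, 1 of 14 inhibitors and 1 of 20 targets, where 3.11% of all genes passed. Against mock cells it gave 2 of 6, 0 of 14, 1 of 14 and 0 of 20 in the same order of lists, where 3.66% passed. In footprints 1 of 16 targets passed against GFP cells and 0 of 16 against mock cells, where 3.31% and 3.59% of all genes did, and 0 genes of the other lists passed against either control. Of 11 other ligands and receptors, 6 were tested in RNA and 4 in footprints. The ligand Lif had a mean RNA level of 1.55 scaled FPKM over 12 libraries, and Il6, the ligand interleukin 6, was listed at 0 in all 24 libraries. Ctf1, which encodes the ligand cardiotrophin 1, was at 5.07, 1.51, 0.896 and 1.77 scaled RNA FPKM in inhibitor libraries 1 to 4, against 0.434, 1.08, 0.410 and 0.879 in GFP libraries and 0, 1.15, 0 and 0.646 in mock libraries. Its highest value came from inhibitor library 1, where the scaling raised low values most, and its difference without that library is not given. The difference was 0.84 against GFP cells (log2, SE 0.35), with an unadjusted p of 0.0332 and an adjusted p of 1 by limma, and 1.13 against mock cells (SE 0.35), with an unadjusted p of 0.00662 and an adjusted p of 0.853. For Il6ra, the interleukin 6 receptor, differences were 0.35 against GFP cells and 0.60 against mock cells in RNA (SE 0.26 for both), and 0.38 and 0.37 in footprints (SE 0.20 for both). For Il11ra1, the interleukin 11 receptor, the footprint differences had opposite signs, -0.13 against GFP cells and 0.26 against mock cells (SE 0.17 for both).

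Of 14 kinases, STATs and adaptors, 14 were tested in RNA, with a median difference of -0.026 against GFP cells and 0.072 against mock cells, and 13 in footprints, with medians of 0.072 and 0.027. Stat5a, another STAT, was at 0.58 in RNA against GFP cells (log2, SE 0.27, unadjusted p 0.0496 and adjusted p 1 by limma) and at 0.55 against mock cells. Stat6 was at -0.30 and -0.22 in the same comparisons (SE 0.20 for both). The adaptors Gab1 and Grb2 were at 0.22 and 0.20 in footprints against GFP cells and at 0.28 and 0.24 against mock cells (SE 0.15 for all). The other kinases of the family in this list included Jak2, with a mean of 1.33 scaled RNA FPKM over 12 libraries, and Tyk2, with 10.4.

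Among 15 inhibitors of the pathway, Socs1 stood out at the unadjusted level. Its RNA was at 4.66, 2.88, 2.04 and 4.42 scaled FPKM in inhibitor libraries 1 to 4, against 1.46, 1.11, 0.911 and 1.83 in GFP libraries and 0.290, 1.28, 1.12 and 1.01 in mock libraries. The highest Socs1 value came from inhibitor library 1, where the scaling raised low values most, and the difference without that library is not given. Every inhibitor library was above every control library. How many of all genes lay higher in that way was not counted, so no background stands beside this separation. The difference was 0.92 against GFP cells (log2, SE 0.26, unadjusted p 0.00345) and 1.21 against mock cells (SE 0.26, unadjusted p 0.00039), and limma's adjusted p-values were 0.857 and 0.245. In the blocked fit they were 0.280 and 0.0923, above the threshold. Socs1 footprints differed by 0.0047 against GFP cells and 0.13 against mock cells (SE 0.26 for both), at a mean of 0.777 scaled FPKM over 12 libraries. Its translational efficiency was at -0.92 against GFP cells (SE 0.38, unadjusted p 0.0245, adjusted p 1 by limma). Against mock cells it was at -1.085 (SE 0.38, unadjusted p 0.00902 by limma). The mean footprint level of Socs1 lay under the pseudocount of 1, where the log2 scale understates differences. Its efficiency values thus lean on the RNA differences and cannot show whether its translation changed. In efficiency 1 of 12 inhibitors, Socs1, passed an unadjusted p under 0.05 against each control, where 0.714% and 0.915% of all genes did. Of 4 other ligands and receptors, 0 passed against GFP cells and 1 against mock cells. That gene was Ctf1, whose footprints averaged 0.578 scaled FPKM over 12 libraries, also under the pseudocount. For kinases, STATs and adaptors and for targets it was 0 of 13 and 0 of 16 against either control. Over the 14 inhibitors tested in RNA the median was 0.013 against GFP cells and 0.0065 against mock cells. Pias2, which encodes a protein inhibitor of activated STAT, was at -0.32 in RNA against GFP cells and -0.26 against mock cells (SE 0.26 for both). In footprints Pias1 was at 0.36 and 0.32 against these controls (SE 0.24 for both) and Pias3 at 0.22 and 0.27 (SE 0.20 for both).

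Of 21 gene names listed as known targets of LIF and STAT3, with both Pem and Rhox5 among them, 20 were in the tables and Pem was not. Of the genes found, 20 were tested in RNA and 16 in footprints. Their median RNA difference was -0.069 against GFP cells and -0.0066 against mock cells, with 11 of 20 and 10 of 20 below 0. Klf4, a transcription factor of naive pluripotency, had the lowest value of the list in RNA and footprints. Klf4 footprints were at 23.4, 17.1, 26.0 and 14.9 scaled FPKM in inhibitor libraries 1 to 4, against 33.7, 24.7, 27.2 and 29.9 in GFP libraries and 20.8, 32.9, 26.3 and 24.3 in mock libraries. The inhibitor and control ranges overlapped. The Klf4 differences against GFP cells were -0.52 in RNA (SE 0.28) and -0.51 in footprints (SE 0.20, unadjusted p 0.0218 and adjusted p 1 by limma), and against mock cells they were -0.42 and -0.36. Tfcp2l1, another transcription factor downstream of STAT3, was at -0.30 in footprints against GFP cells and -0.27 against mock cells (SE 0.19 for both). Pramel7, of the PRAME-like family, was at 1.10 in RNA against GFP cells (SE 0.41, unadjusted p 0.0181 and adjusted p 1 by limma) and at 0.70 against mock cells, with 6.02 scaled FPKM in inhibitor library 1 and 0.279 to 1.44 in inhibitor libraries 2 to 4, against at most 0.628 in GFP cells and 1.32 in mock cells. The Pramel7 difference without inhibitor library 1, where the scaling raised low values most, is not given.

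Markers of the stem cell state and of other cells were read beside these values. Of the 14 pluripotency markers, 10 were below 0 in RNA against GFP cells, with a median of -0.17, and 8 against mock cells, with a median of -0.070. Of all genes 52.2% and 51.6% were. In footprints 12 of 14 were below 0 against GFP cells and 10 of 14 against mock cells, where 47.0% and 49.2% of all genes were. Sox2, a core pluripotency factor, was at -0.51 in RNA against GFP cells (SE 0.22, unadjusted p 0.0344 and adjusted p 1 by limma) and at -0.20 against mock cells (SE 0.22), while GFP against mock was at 0.31. In footprints it was at -0.34 and -0.20 against the same controls (SE 0.16 for both). Of 13 feeder markers 3 were tested in RNA, Fn1, Thy1 and Pdgfrb. Thy1 was at 0.92 against GFP cells (SE 0.30, unadjusted p 0.00784 and adjusted p 1 by limma) and at 0.80 against mock cells. The others had the opposite sign, with Fn1 at -0.45 and -0.59 (SE 0.36 for both) and Pdgfrb at -0.053 and -0.18 (SE 0.25 for both). The summed RNA of the feeder list was 52.3 to 126 scaled FPKM in inhibitor cells, 72.7 to 168 in GFP cells and 75.7 to 166 in mock cells. Fn1, with a mean of 108 over 12 libraries, made most of it, and the markers other than Fn1 and Thy1 averaged under 1. For the 10 trophoblast markers these sums were 13.8 to 49.9 in inhibitor cells, 8.69 to 54.0 in GFP cells and 7.01 to 46.3 in mock cells, with Elf5 listed at 0 in 11 of 12 RNA libraries. For the 10 primitive endoderm markers they were 78.1 to 214 in inhibitor cells, 65.3 to 211 in GFP cells and 107 to 216 in mock cells. Sparc, Lama1 and Col4a1 made most of the endoderm sums, with RNA means of 90.5, 30.6 and 25.3 over 12 libraries. Of 6 trophoblast markers tested, 6 were above 0 in RNA against GFP cells and 5 against mock cells, and 4 in footprints against each. Of 10 primitive endoderm markers, 9 were above 0 in RNA against GFP cells and 6 against mock cells, while 9 were below 0 for GFP against mock. In footprints 8 of 9 were above 0 against GFP cells and 5 of 9 against mock cells. Of all genes, 52.2% and 51.6% were below 0 in RNA against GFP and mock cells, and 48.8% for GFP against mock. In footprints 47.0% and 49.2% of all genes were. A mean RNA level of at least 1 scaled FPKM was reached by 5 of 10 trophoblast and 8 of 10 primitive endoderm markers. The scaling raised low values most in inhibitor RNA library 1. Limma called none of these markers in any comparison, and their part in the values of the signalling genes was not tested.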

How the data were processed

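The authors deposited FPKM per gene for 12 RNA and 12 footprint libraries, with the RefSeq transcripts of each gene, per the file headers. The submitters' processing notes name CASAVA 1.8.2, TopHat, Bowtie2, RSEM and mm10; their other versions are not stated. The labels and file columns gave the groups. FPKM were scaled by a median of ratios over genes that reached 5 FPKM throughout (1717 in RNA, 2960 in footprints), since ribosomal RNA lowers the FPKM of all other genes, and log2(scaled FPKM + 1) was tested for genes with a mean of at least 0.5 with limma 3.58.1 in R 4.3.3 (trended, robust, two-sided, all 3 groups, Benjamini-Hochberg), after tests on simulated data. The simulated libraries varied independently of each other, so those tests do not cover deviations shared by libraries of the same number. The log2 scale with pseudocount 1 understates differences of low genes. Low values step by whole reads, but relative depth was not settled from them. No library pair was identical (0 in each table).

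The pairing check came from the data alone: deviations of same-numbered libraries correlated at 0.31 to 0.78 in RNA (12 pairs of libraries, 7426 genes) and at 0.45 to 0.81 between inhibitor and GFP footprints (4581 genes), but at -0.17 to 0.60 between inhibitor and mock footprints, whose numbers did not meet the check, so blocked footprint fits that include mock libraries rest on numbers that need not pair. Named pathway genes and named pluripotency and feeder markers are, per list, the 2 with the smallest p in RNA and in footprints for inhibitor against GFP. Trophoblast and primitive endoderm markers are given as sums and counts. Lif, Il6, Jak2, Tyk2, Pdgfrb, Sparc, Lama1, Col4a1 and the markers at 0 are named for their levels, a choice made after their values were seen. Nearest genes are the 3 with the smallest profile distance. The members and lists were chosen with earlier results of these data known. Python 3.11.15 with pandas 2.3.3 and matplotlib 3.10.9 made tables and plots.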

Additional observations from a re-analysis of the deposited data

Results flagged for a closer look

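In 3 of the 42 groups of 4 libraries (7 genes, 2 assays, 3 kinds of cells) 1 library stood apart from the others by Dixon's criterion, which chance passes in about 1 in 20 groups. The gap to the nearest library took 0.936 of the range for Stat3 RNA in inhibitor library 4, which lay above the other inhibitor libraries. It took 0.837 of the range for Socs3 RNA in the same inhibitor library 4, again the highest. For Jak1 RNA in mock library 3, the lowest mock library, it took 0.846 of the range.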

How the results depend on the processing

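No signalling gene passed limma's adjusted threshold in any of the 8 comparisons under any alternative (0 calls in 1003 recomputed differences; 19 settings for each comparison within a table and 15 for each of translational efficiency). Of these differences 111 took the other sign, 47 of them outside settings that leave out 1 library, and in 0 of the 111 was the reported value larger than its SE. Lifr and Socs3 of inhibitor cells kept their sign in both assays against both controls. Depth, unknown here, and 4 libraries a group limit what could be detected. FPKM as deposited shifted the median of all genes by -0.39, -0.19 and 0.21 in RNA (inhibitor against GFP, inhibitor against mock, GFP against mock) and by 0.40 and 0.20 in translational efficiency.

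The number of all genes called, 2 for inhibitor against GFP in RNA, was 12 with FPKM as deposited, 1 with quantile normalization, with pseudocount 0.25 or with a mean of at least 5 FPKM, 0 without a filter, with only the 2 groups or without libraries numbered 1, 32 with a replicate block over 3 groups, 18 with a block over 2, and 9 with the block and without libraries numbered 1. For inhibitor against mock in RNA, 3 became 16 with FPKM as deposited, 2 without a filter, 1 with a mean of at least 5, 0 with only the 2 groups or without libraries numbered 1, 34 and 15 with the blocks and 10 with the block and without libraries numbered 1. For inhibitor against GFP in footprints, 1 became 4 with FPKM as deposited, 3 without a filter, 0 with a mean of at least 5, 8 and 62 with the blocks and 5 with the block and without libraries numbered 1. For inhibitor against mock in footprints, 0 became 3 with FPKM as deposited, 1 without a filter, 2 and 1 with the blocks and 14 with the block and without libraries numbered 1. For GFP against mock in footprints, 1 became 0 with a mean of at least 5 or a block over 2 groups, and 2 with only the 2 groups. For translational efficiency of inhibitor against GFP, 0 became 1 with FPKM as deposited. Leaving out 1 library gave 0 to 15 and 0 to 18 for inhibitor against GFP and mock in RNA (15 and 18 without inhibitor library 4, 1 and 3 without inhibitor library 2, 0 without any other), and in footprints 1 to 3, 0 to 2, and 1 to 3 for GFP against mock. The cause was not tested.

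The differences of the other sign were these. With FPKM as deposited, in RNA of inhibitor against GFP, the difference was -0.33 for Pim1. In RNA of inhibitor against mock, the difference was -0.13 for Pim1 and -0.28 for Pim3. In RNA of GFP against mock, the difference was 0.20 for Lifr, 0.20 for Il6st, 0.18 for Jak1, 0.23 for Socs3 and 0.20 for Pim1. In footprints of GFP against mock, the difference was 0.040 for Jak1. In efficiency of inhibitor against GFP, the difference was 0.34 for Il6st, 0.35 for Jak1, 0.28 for Socs3 and 0.19 for Pim3. In efficiency of inhibitor against mock, the difference was 0.21 for Jak1. With quantile normalization, in RNA of inhibitor against GFP, the difference was 0.014 for Jak1. In RNA of inhibitor against mock, the difference was -0.0076 for Pim3. In RNA of GFP against mock, the difference was -0.029 for Stat3. In efficiency of inhibitor against GFP, the difference was -0.026 for Pim1. In efficiency of inhibitor against mock, the difference was -0.0041 for Il6st and -0.014 for Stat3. Without libraries numbered 1, with or without the replicate block, in RNA of inhibitor against GFP, the difference was 0.0052 for Jak1. In RNA of inhibitor against mock, the difference was -0.032 for Pim3. In RNA of GFP against mock, the difference was 0.018 for Il6st and -0.014 for Stat3. In footprints of inhibitor against GFP, the difference was 0.031 for Jak1 and 0.027 for Stat3. In footprints of GFP against mock, the difference was -0.068 for Il6st. In efficiency of inhibitor against GFP, the difference was 0.026 for Jak1 and -0.13 for Pim1. In efficiency of inhibitor against mock, the difference was -0.10 for Il6st, -0.037 for Stat3 and -0.018 for Pim1. For Stat3 in efficiency of inhibitor against mock it was -0.0020 with pseudocount 0.25 and -0.00063 with only the 2 groups, with or without a replicate block. Leaving out 1 library gave the following ranges. RNA of inhibitor against GFP ran from -0.10 to 0.11 for Jak1 and from -0.35 to 0.039 for Pim3. RNA of inhibitor against mock ran from -0.29 to 0.0031 for Il6st, from -0.15 to 0.035 for Jak1 and from -0.21 to 0.16 for Pim3. RNA of GFP against mock ran from -0.12 to 0.040 for Lifr, from -0.16 to 0.13 for Il6st, from -0.16 to 0.048 for Jak1, from -0.053 to 0.093 for Stat3, from -0.24 to 0.14 for Socs3, from -0.15 to 0.094 for Pim1 and from -0.036 to 0.33 for Pim3. Footprints of inhibitor against GFP ran from -0.30 to 0.22 for Jak1 and from -0.10 to 0.072 for Stat3. Footprints of inhibitor against mock ran from -0.30 to 0.048 for Il6st and from -0.27 to 0.20 for Jak1. Footprints of GFP against mock ran from -0.013 to 0.18 for Lifr, from -0.089 to 0.20 for Il6st, from -0.24 to 0.24 for Jak1 and from -0.13 to 0.27 for Pim3. Efficiency of inhibitor against GFP ran from -0.065 to 0.038 for Jak1, from -0.32 to 0.037 for Socs3 and from -0.12 to 0.29 for Pim1. Efficiency of inhibitor against mock ran from -0.098 to 0.16 for Il6st, from -0.085 to 0.040 for Jak1, from -0.032 to 0.0096 for Stat3, from -0.31 to 0.31 for Socs3, from -0.012 to 0.40 for Pim1 and from -0.69 to 0.081 for Pim3. The footprint-to-RNA log2 ratio of Pim1 in GFP cells was -0.88 with FPKM as deposited, against -0.67, the 1 of 42 recomputed ratios that moved by more than the spread between libraries. The replicate block changed no call on a signalling gene. Over all 3 groups it changed none on a pathway gene, and the other blocked fits were not examined for pathway genes. In footprints, inhibitor and GFP libraries numbered 1 correlated best with mock library 2, and those numbered 2 with mock library 1. Between assays, each mock RNA library correlated best with the mock footprint library of its number (0.088 to 0.37). Inhibitor and GFP RNA libraries numbered 1 correlated best with footprint library 2 of their group, and those numbered 2 with footprint library 1. Settings that leave out a number from both assays rest on these numbers. All this is a hint from the data and not the design.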
